A study of Mus musculus with 30 samples.

Results

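Smooth muscle cells (SMC) and PDGFRα hi fibroblasts (FB) of the mouse small intestine were compared for genes of contraction, to find which of these genes both populations shared and which separated them. The comparison used the 3 SMC and the 3 PDGFRα hi FB libraries of the small intestine, taken by the population and replicate number in their sample labels, which are 6 of the 30 bulk RNA-seq libraries of the series. The study sorted 10 stromal populations from small intestine and colon, in 3 replicates each, to compare the stromal subsets of the gut with one another. All animals were untreated C57BL/6Nrj mice aged 8 to 10 weeks. The cells came from lamina propria from which Peyer's patches, epithelium and the outer muscle coat had been removed, so that muscle of the external layers was not sampled by design. Dead cells and cells positive for lineage markers, CD31, BP3 or EpCAM or high for NCAM were gated out, after which SMC were sorted by the presence of ESAM-1 and podoplanin (PDPN) without PDGFRα. The sort of PDGFRα hi FB took cells high for PDGFRα that lacked ESAM-1 and CD34. The labels number the replicates of both populations and speak of individual mice, without saying which SMC and PDGFRα hi FB libraries came from the same animal.

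Smooth muscle contracts when calcium, entering through channels of the membrane or released from internal stores, binds calmodulin and activates myosin light chain kinase, which phosphorylates the regulatory light chain so that myosin pulls on actin. Myosin phosphatase reverses this step, cyclic nucleotides oppose contraction, and dense plaques and intermediate filaments carry the force to the membrane. PDGFRα hi FB lie beneath the epithelium and are known as a source of BMP and Wnt ligands. In the muscle layers, cells positive for PDGFRα are known to carry calcium-activated potassium channels and to relay inhibitory signals of enteric nerves.

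The sum of estimated counts was 8866828, 9512574 and 13507159 in SMC replicates 1, 2 and 3 and 7327358, 18148945 and 8041204 in PDGFRα hi FB replicates 1, 2 and 3. The third SMC library stood apart from the others. Mitochondrial genes held 17.6% of its counts on genes, against 4.59% and 5.95% in SMC 1 and 2 and 2.31% to 3.12% in PDGFRα hi FB. Its 10 most abundant genes held 21.3%, against 6.76% to 12.1% in the other 5 libraries. At least 6 counts were found for 12275 genes in SMC 3, against 13589 to 15328 in the others, although its total count was the second largest. Across genes, which are not independent replicates, its log2 level had a Pearson correlation of 0.769 with SMC 1 and 0.770 with SMC 2, against 0.885 between SMC 1 and SMC 2. PDGFRα hi FB 3 differed from PDGFRα hi FB 1 and 2 as well, with correlations of 0.859 and 0.867 against 0.943 between those 2. Its most abundant transcript held 14.8% of its TPM, against 49.2% and 51.1% in PDGFRα hi FB 1 and 2, and belonged to Gm29013, as in SMC 3 and in no other of the 30 libraries. Both replicates numbered 3 thus stood apart, for reasons that were not tested. Counts of calls over all genes and in the gene lists are therefore also given without SMC 3. Levels are counts scaled to equal library size (CPM) after TMM normalization of the 6 libraries, in the order of replicates 1, 2 and 3. Log2 fold changes are SMC over PDGFRα hi FB, so that a negative value means a higher level in PDGFRα hi FB. They are given ± SE.

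The markers given for the comparison fell on the side of their label. *Actg2* (enteric smooth muscle γ-actin; ENSMUSG00000059430, GRCm38 chr6:83512905-83536265, minus strand) was at 1987, 1885 and 1304 CPM in SMC and at 2.36, 4.12 and 15.8 CPM in PDGFRα hi FB. *Myh11* (smooth muscle myosin heavy chain; ENSMUSG00000018830, chr16:14194535-14291372, minus strand) was at 11960.4, 9435 and 13426 CPM in SMC and at 1099, 1970.4 and 1373 CPM in PDGFRα hi FB. *Pdgfra*, whose protein was used for sorting (ENSMUSG00000029231, chr5:75152292-75198215, plus strand), was at 16.3, 24.0 and 41.5 CPM in SMC and 6074, 6499 and 6374 CPM in PDGFRα hi FB. For each of the 3 genes the lowest library of the higher population lay above the highest library of the other. The log2 fold change was 7.86 (SE 0.80) for *Actg2*, 2.97 (SE 0.35) for *Myh11* and -7.86 (SE 0.50) for *Pdgfra*, with edgeR adjusted p = 0.000593, 0.00139 and 5.37e-05. Over the 6 fits with 1 library left out the log2 fold change of *Actg2* ran from 7.45 to 9.03. *Esam*, which encodes the sorting marker ESAM-1, was at 116, 93.3 and 152 CPM in SMC and 1.70, 0.214 and 0.226 in PDGFRα hi FB. The gates given for PDGFRα hi FB do not include podoplanin and those for SMC do not include CD34. *Pdpn*, whose product podoplanin was required of SMC, was at 13.0, 5.67 and 11.8 CPM in SMC and 84.7, 89.6 and 68.8 in PDGFRα hi FB (log2 fold change -2.997 ± 0.49, edgeR adjusted p = 0.00680). *Cd34*, whose product had to be absent from PDGFRα hi FB, was at 11.8, 8.02 and 9.30 CPM in SMC and 99.5, 90.3 and 153 in PDGFRα hi FB (log2 fold change -3.56 ± 0.43, edgeR adjusted p = 0.00154). On the scale of the 15 small intestinal libraries *Pdpn* was at 9.95 ± 3.86 CPM in SMC and 0.184 ± 0.219 CPM in pericytes, and *Cd34* at 116 ± 32.9 CPM in PDGFRα hi FB, 621 ± 63.6 in CD34+ FB and 84.9 ± 50.2 in Fgfr2+ FB (means ± SD).

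Markers of other cell types were summed for each library. The 10 epithelial markers reached 4.41, 8.90 and 5.49 CPM in SMC and 4.72, 7.97 and 4.62 CPM in PDGFRα hi FB, with *Lgals4* the most abundant and *Epcam*, *Krt8* and *Krt18* at 0 in all 6 libraries. The 10 endothelial markers summed to 64.0, 65.7 and 219 CPM in SMC and 77.5, 52.8 and 109 CPM in PDGFRα hi FB, most of it *Pecam1*, with *Cldn5* at 0 in all 6 and the highest sum in SMC 3. The 10 immune markers summed to 21.1, 19.7 and 22.1 CPM in SMC, led by *Ptprc*, and 46.9, 40.8 and 9.02 CPM in PDGFRα hi FB, led by *Lyz2*, with *Tyrobp* and *Cd3e* at 0 in all 6. Neuronal markers (5 genes, led by *Snap25*), mesothelial markers (4, led by *Wt1*) and erythroid markers (5, led by *Alas2*) each stayed at or below 8.70 CPM in sum in every library. The 11 pericyte markers summed to 4672, 4312 and 7985 CPM in SMC, of which *Rgs5* was the largest part, and to 3114, 3543 and 3056 CPM in PDGFRα hi FB, of which *Abcc9* was. Of its 7 tested genes, 2 were called higher in SMC (*Rgs5* and *Mcam*) and 2 higher in PDGFRα hi FB (*Abcc9* and *Kcnj8*). *Notch3*, another gene of this list, was at 4.93, 8.70 and 5.38 CPM in SMC and 3.67, 5.08 and 2.26 in PDGFRα hi FB, and *Higd1b* was at 0 in PDGFRα hi FB. The 5 markers of interstitial cells of Cajal summed to 39.9, 27.4 and 50.6 CPM in SMC and 480.2, 421 and 519.6 CPM in PDGFRα hi FB, led by *Etv1* in PDGFRα hi FB (459, 394 and 453 CPM), with *Thbs4* at 0 in all 6 and *Kit* at 6.95, 8.08 and 42.6 CPM in PDGFRα hi FB. The 8 markers of CD34+ FB summed to 922, 634 and 723 CPM in SMC and 1588, 1975 and 1605 CPM in PDGFRα hi FB, led by *Igfbp5* in both; of these *Grem1* was called higher in SMC and *Cd34* and *Dpt* higher in PDGFRα hi FB. The 3 markers of Fgfr2+ FB summed to 583, 519 and 339 CPM in SMC, led by *Fgfr2*, and 572, 483 and 631 CPM in PDGFRα hi FB, led by *Rdh10*. *Fgfr2* was called higher in SMC (log2 fold change 2.80 ± 0.41, edgeR adjusted p = 0.00415), and *Lpl* (log2 fold change -2.57 ± 0.38, edgeR adjusted p = 0.00434) and *Rdh10* (log2 fold change -1.53 ± 0.31, edgeR adjusted p = 0.0216) higher in PDGFRα hi FB. The call of *Rdh10* was lost whichever library was left out. That of *Dpt* was lost without SMC 1 or 2 (log2 fold change -3.30 to -2.43 over the 6 fits, largest edgeR adjusted p = 0.0542). The part of such cells in the differences below was not tested, and in sorted bulk samples fewer cells of a type and less RNA per cell cannot be told apart.

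Of 14525 genes tested, 432 were called higher in SMC and 410 higher in PDGFRα hi FB, which is 2.97% and 2.82% of the genes; with DESeq2 the calls came to 780 and 682. A gene was called at an edgeR adjusted p below 0.05 and a log2 fold change beyond 1.5 in either direction. A gene was counted at a like level, and so as shared, where all 6 libraries had at least 10 CPM and the 95% interval of the log2 fold change lay between -1.5 and 1.5, which held for 2513 genes (17.3%). Genes that met neither definition are named undetermined. All SMC libraries lay above all PDGFRα hi FB libraries for 1844 of the genes tested, and below all of them for 1985. Lack of overlap was thus far more frequent than a call. The p-values measure the spread between separate samples, as the labels give them. Of 128 genes in 6 lists of the contractile apparatus, 121 were tested: 38 were called higher in SMC (31.4%), 10 higher in PDGFRα hi FB (8.26%), 38 were at a like level and 35 undetermined. Their median log2 fold change was 0.80, against 0.04 over all genes tested, and 91 of the 121 had at least 10 CPM in every library, against 5626 of all 14525. A like level was thus found for 38 of 91 contractile genes that could reach it, and for 2513 of 5626 over all genes. With the interval held within -1 and 1 the 38 became 11.

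The genes that separated the populations included smooth muscle actins, calponin, leiomodin, myocardin and the large-conductance potassium channel on the SMC side, and *Cacna1g* and genes of ATP-sensitive and small-conductance potassium channels on the PDGFRα hi FB side. Shared genes included cytoskeletal actins, *Rock1* and *Rock2*, some focal adhesion proteins and the transcription factor genes *Foxf1*, *Foxf2*, *Mef2a* and *Mef2d*. Without SMC 3, 36 of the 38 genes called higher in SMC, all 10 called higher in PDGFRα hi FB and 37 of the 38 at a like level kept their class, while the calls over all genes came to 493 and 591. With both replicates numbered 3 left out, which was chosen after seeing the data, 35 of the 38, all 10 and 37 of the 38 kept it. Leaving out 1 library in turn, 27 of the 38 and 5 of the 10 were called in all 6 fits. The 10 became 6 without SMC 1 and 5 without PDGFRα hi FB 1 or PDGFRα hi FB 2. Of the 38 at a like level, 26 kept that class without SMC 1 and 26 without SMC 2. It was kept by 27 without PDGFRα hi FB 1, 27 without PDGFRα hi FB 2 and 29 without PDGFRα hi FB 3. Over all genes, the calls came to 210 and 212 without PDGFRα hi FB 1, 237 and 205 without PDGFRα hi FB 2, 277 and 262 without PDGFRα hi FB 3, and the calls higher in PDGFRα hi FB to 255 without SMC 2.

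**Figure D1:**
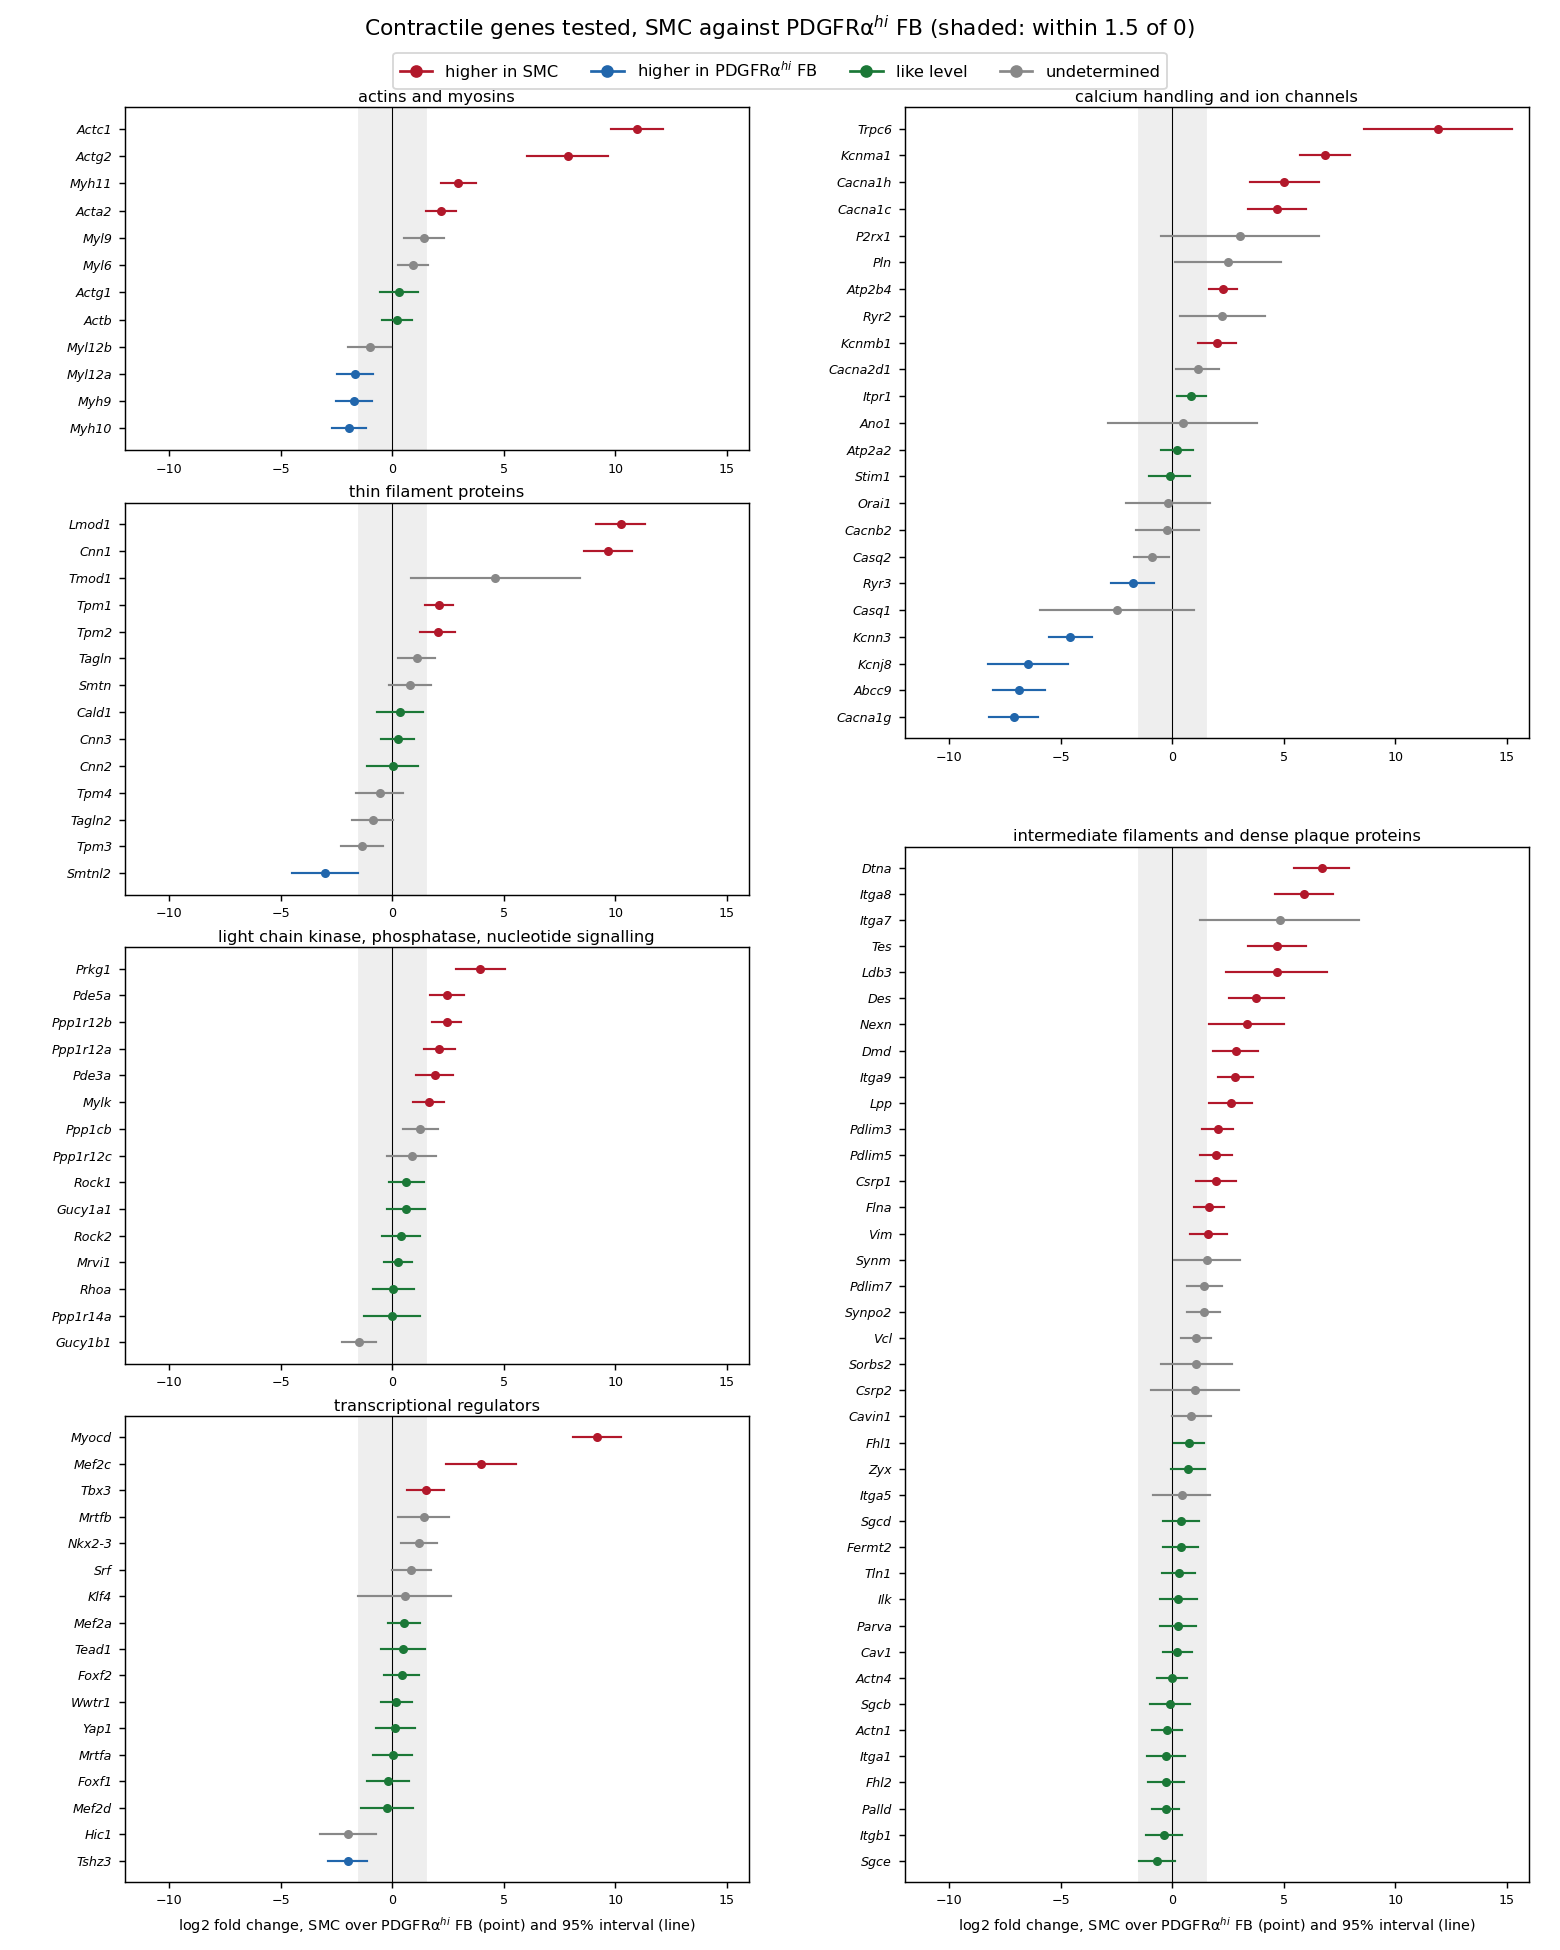
Log2 fold change of SMC over PDGFRα hi FB (point) with its 95% interval (line) for 120 of the 121 contractile genes tested, in 6 panels by role, coloured by class; the shaded band marks -1.5 to 1.5. Of the 121 genes 38 were called higher in SMC, 10 higher in PDGFRα hi FB and 38 lay at a like level within the band.

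Among the 13 actins and myosins, 12 were tested, of which 4 were called higher in SMC and 3 higher in PDGFRα hi FB (without SMC 3, 4 higher in SMC and 3 in PDGFRα hi FB; median log2 fold change 0.61). *Actc1*, the α-actin of cardiac muscle, which is also made by some visceral smooth muscle (ENSMUSG00000068614, chr2:114047282-114053548, minus strand), was at 278, 288 and 386 CPM in SMC and 0.131, 0.107 and 0.226 in PDGFRα hi FB. It was close to background in every PDGFRα hi FB library and did not overlap between populations (log2 fold change 10.98 ± 0.52, edgeR adjusted p = 2.30e-05). *Acta2*, the α-actin of vascular smooth muscle and myofibroblasts, was at 4818, 3904 and 4735 CPM in SMC and 865, 1173 and 921 in PDGFRα hi FB. The PDGFRα hi FB libraries were all lower but not near 0, and their mean was 22.0% of that of SMC (log2 fold change 2.19 ± 0.30, edgeR adjusted p = 0.00266). The same holds for *Myh11*, whose PDGFRα hi FB mean was 12.8% of the SMC mean, whereas it was 0.430% for *Actg2* and 0.0488% for *Actc1*. The non-muscle myosin heavy chains went the other way. *Myh10* was at 188, 201 and 194 CPM in SMC and 625, 1059.9 and 566 in PDGFRα hi FB. *Myh9* was at 490.2, 311 and 546 CPM in SMC and 1424, 1944 and 1030.2 in PDGFRα hi FB. All PDGFRα hi FB libraries lay above all SMC libraries for both genes (log2 fold change -1.95, SE 0.33, edgeR adjusted p = 0.00914 for *Myh10*; -1.71, SE 0.36, 0.0246 for *Myh9*). *Myl12a*, a regulatory light chain of non-muscle myosin, was at 73.8, 70.0 and 66.4 CPM in SMC and 268, 264 and 138 in PDGFRα hi FB (log2 fold change -1.67 ± 0.36, edgeR adjusted p = 0.0259). *Myh9* lost its call without SMC 1 or 2 or without PDGFRα hi FB 1 or 2 (log2 fold change -1.91 to -1.45 over the 6 fits, largest edgeR adjusted p = 0.118). *Myl12a* lost it without SMC 1 or 2 or without PDGFRα hi FB 1 or 2 (log2 fold change -1.92 to -1.52 over the 6 fits, largest edgeR adjusted p = 0.146).

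The cytoplasmic actins were shared. *Actb* was at 2237, 2613 and 1685 CPM in SMC and 1846, 2124 and 1589 in PDGFRα hi FB, with overlapping libraries and a 95% interval of -0.44 to 0.91. *Actg1* was at 258, 253 and 522 CPM in SMC and 302, 328 and 209 in PDGFRα hi FB, with an interval of -0.55 to 1.15; SMC 3 was its highest library. *Myl9*, the regulatory light chain of smooth muscle, had 1710.1, 1124 and 1162 CPM in SMC and 510.5, 704 and 276 in PDGFRα hi FB. Its libraries did not overlap, but the difference was not called (log2 fold change 1.42, edgeR adjusted p = 0.0758). *Myl6*, the essential light chain, had 499 to 721 CPM in SMC and 265 to 371 CPM in PDGFRα hi FB and was not called either; 65.3% of its 31-base stretches also occur in transcripts of other genes, so that its count is uncertain. *Acta1* had too few counts to be tested.

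**Figure D2:**
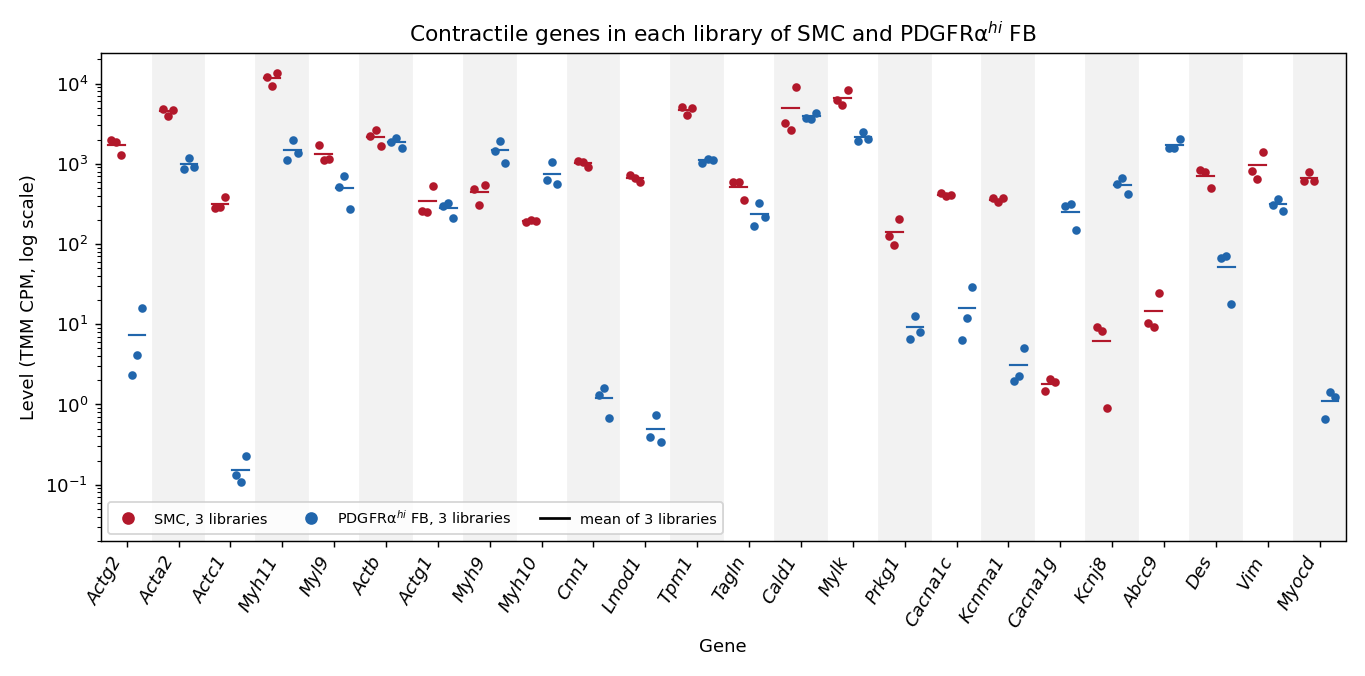
Level of 24 contractile genes in each library, as TMM CPM on a log axis, with 3 libraries of SMC in red, 3 of PDGFRα hi FB in blue and a line at each mean. The 2 populations are far apart for *Actc1*, *Cnn1*, *Lmod1*, *Myocd*, *Cacna1g* and *Abcc9* and overlap for *Actb*, *Actg1* and *Cald1*.

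Of 14 genes of the thin filament, 4 were called higher in SMC and 1 higher in PDGFRα hi FB (without SMC 3, 4 higher in SMC and 1 in PDGFRα hi FB; median log2 fold change 0.57). *Cnn1*, the smooth muscle calponin that binds actin and slows myosin, was at 1081, 1063 and 923 CPM in SMC and 1.31, 1.61 and 0.677 in PDGFRα hi FB. *Lmod1*, a leiomodin that nucleates actin filaments, was at 721, 668 and 596 CPM in SMC and 0.393, 0.749 and 0.338 in PDGFRα hi FB. Both genes were within a narrow range in SMC, SMC 3 included, and below 2 CPM in every PDGFRα hi FB library. The log2 fold change was 9.69 (SE 0.48, edgeR adjusted p = 2.47e-05) for *Cnn1* and 10.26 (SE 0.49, edgeR adjusted p = 2.30e-05) for *Lmod1*. Of the tropomyosins, which lie along the actin filament, *Tpm1* was at 5120.4, 4101 and 4997 CPM in SMC and 1034, 1157 and 1119 in PDGFRα hi FB (log2 fold change 2.103 ± 0.28, edgeR adjusted p = 0.00260). *Tpm2* had 1482 to 2938 CPM in SMC and 449.9 to 672 CPM in PDGFRα hi FB (log2 fold change 2.04 ± 0.35, edgeR adjusted p = 0.00943), a call that was lost without PDGFRα hi FB 1 or 3 (log2 fold change 1.80 to 2.27 over the 6 fits, largest edgeR adjusted p = 0.0654). *Tpm3* and *Tpm4*, which are also made by non-muscle cells, were not called (log2 fold change -1.36 and -0.56), although *Tpm3* was called higher in PDGFRα hi FB without SMC 2. *Tagln*, which encodes the actin-binding protein SM22α and is widely used as a smooth muscle marker, was at 591, 589.7 and 349 CPM in SMC and 169, 329 and 219 in PDGFRα hi FB. Every SMC library exceeded every PDGFRα hi FB library, but by little beside the spread, and it was not called (log2 fold change 1.09, 95% interval 0.27 to 1.92, edgeR adjusted p = 0.141).

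*Cald1*, the gene of caldesmon, was shared in its level, at 3257, 2626 and 8941 CPM in SMC and 3722, 3658 and 4351 in PDGFRα hi FB, where SMC 3 was the highest library and the interval was -0.70 to 1.38. The calponins *Cnn2* and *Cnn3*, which occur outside muscle, were also at a like level (intervals -1.12 to 1.14 and -0.50 to 0.97). *Smtn*, the gene of smoothelin, had 347, 206 and 307 CPM in SMC and 236, 173 and 85.9 in PDGFRα hi FB and was undetermined (log2 fold change 0.80, edgeR adjusted p = 0.372). *Smtnl2*, a smoothelin-like gene, was the 1 member of this list called higher in PDGFRα hi FB, at 19.8, 3.52 and 23.1 CPM in SMC and 134, 154 and 89.9 in PDGFRα hi FB (log2 fold change -3.02 ± 0.66, edgeR adjusted p = 0.0285). It was not called without SMC 1 or without PDGFRα hi FB 1, 2 or 3 (log2 fold change -3.45 to -2.55 over the 6 fits, largest edgeR adjusted p = 0.106).

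Among 15 genes of the light chain kinase, the phosphatase and nucleotide signalling, 6 were called higher in SMC, 6 were at a like level and 3 were undetermined (without SMC 3, 5 higher in SMC and 1 in PDGFRα hi FB; median log2 fold change 0.87). The genes at a like level numbered 2 without SMC 1 or 2, 7 without SMC 3, 3 without PDGFRα hi FB 1 or 3 and 4 without PDGFRα hi FB 2. *Mylk*, the gene of myosin light chain kinase, was at 6301, 5367 and 8386 CPM in SMC and 1942, 2464 and 2024 in PDGFRα hi FB. Its level was high in both populations, and the SMC libraries were all above those of PDGFRα hi FB (log2 fold change 1.64 ± 0.31, edgeR adjusted p = 0.0141). *Prkg1*, the cyclic GMP-dependent kinase that relaxes smooth muscle, was at 126, 97.0 and 204 CPM in SMC and 6.55, 12.7 and 8.12 in PDGFRα hi FB. It was low in all PDGFRα hi FB libraries and highest in SMC 3 (log2 fold change 3.95 ± 0.48, edgeR adjusted p = 0.00155). The targeting subunits of myosin phosphatase, *Ppp1r12a* and *Ppp1r12b*, were higher in SMC by 2.11 and 2.44 on the log2 scale (SE 0.31 and 0.30, edgeR adjusted p = 0.00410 and 0.00154). With length-scaled TPM counts *Ppp1r12b* was not called, at a log2 fold change of 1.72. *Pde5a*, a phosphodiesterase that breaks down cyclic GMP, was at 619, 622 and 938 CPM in SMC and 106, 122 and 168 in PDGFRα hi FB (log2 fold change 2.46 ± 0.34, edgeR adjusted p = 0.00285), and *Pde3a* at 132 to 267 and 49.1 to 51.8 CPM (log2 fold change 1.90 ± 0.37, edgeR adjusted p = 0.0159). *Mylk* was not called without SMC 3 or without PDGFRα hi FB 1, 2 or 3 (log2 fold change 1.42 to 1.78 over the 6 fits, largest edgeR adjusted p = 0.117). *Pde3a* was not called without PDGFRα hi FB 1, 2 or 3 (log2 fold change 1.54 to 2.11 over the 6 fits, largest edgeR adjusted p = 0.0969).

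The kinases *Rock1* and *Rock2*, which inhibit myosin phosphatase, and *Rhoa*, which activates them, were shared, with 95% intervals of -0.13 to 1.41, -0.45 to 1.25 and -0.86 to 0.96. So was *Ppp1r14a*, the phosphatase inhibitor CPI-17, at 30.1, 30.8 and 15.3 CPM in SMC and 18.4, 18.2 and 39.3 in PDGFRα hi FB. *Mrvi1*, which encodes a target of the cyclic GMP-dependent kinase at the calcium store, had 363, 355 and 446 CPM in SMC and 294, 370.4 and 302 in PDGFRα hi FB, with overlapping libraries. The subunits of soluble guanylate cyclase, the receptor of nitric oxide, did not move together. *Gucy1a1* was at a like level (198, 219 and 399.7 CPM in SMC and 162, 233 and 134 in PDGFRα hi FB), while *Gucy1b1* was at 85.0, 138 and 127 CPM in SMC and 275, 304 and 404 in PDGFRα hi FB. The latter did not overlap between populations and passed the adjusted p but not the fold threshold (log2 fold change -1.49, 95% interval -2.24 to -0.74, edgeR adjusted p = 0.0302). It was called higher in PDGFRα hi FB without SMC 3 (log2 fold change -1.58, edgeR adjusted p = 0.0179), with upper-quartile scaling and in fits with all 30 or with 15 libraries.

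Ion channels and calcium handling divided in both directions, with 6 of 23 tested genes called higher in SMC and 5 higher in PDGFRα hi FB (without SMC 3, 7 higher in SMC and 5 in PDGFRα hi FB; median log2 fold change 0.47). *Cacna1c*, the pore of the L-type calcium channel, was at 437, 398 and 408 CPM in SMC and 6.29, 11.99 and 29.0 in PDGFRα hi FB. *Cacna1h*, a T-type calcium channel, was at 221, 157 and 67.0 CPM in SMC and 3.93, 7.599 and 1.92 in PDGFRα hi FB. *Cacna1g*, another T-type channel (ENSMUSG00000020866, chr11:94408391-94474198, minus strand), was at 1.47, 2.05 and 1.90 CPM in SMC and 294, 315 and 149.8 in PDGFRα hi FB. The 3 pores thus took opposite sides without overlap, *Cacna1c* (log2 fold change 4.72, SE 0.58) and *Cacna1h* (5.03, SE 0.69) higher in SMC and *Cacna1g* (-7.12, SE 0.49) higher in PDGFRα hi FB, with edgeR adjusted p = 0.00154, 0.00269 and 0.000108. The log2 fold change of *Cacna1g* ran from -7.42 to -5.49 over 17 alternative fits, and its call was kept in all of them.

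Potassium channels were split between the populations as well. *Kcnma1*, the pore of the large-conductance calcium-activated channel, was at 374, 329 and 369 CPM in SMC and 1.97, 2.25 and 5.08 in PDGFRα hi FB (log2 fold change 6.85 ± 0.51, edgeR adjusted p = 0.000147). Its auxiliary subunit *Kcnmb1* was at 272, 187 and 397 CPM in SMC and 54.1, 78.7 and 81.8 in PDGFRα hi FB (log2 fold change 2.00 ± 0.38, edgeR adjusted p = 0.0150), and thus was not near 0 in PDGFRα hi FB as the pore was. The call of *Kcnmb1* was lost without PDGFRα hi FB 1, 2 or 3 (log2 fold change 1.66 to 2.23 over the 6 fits, largest edgeR adjusted p = 0.0973). *Kcnn3*, the small-conductance calcium-activated channel SK3, was at 46.4, 70.4 and 27.8 CPM in SMC and 1215, 1124 and 1097 in PDGFRα hi FB (log2 fold change -4.57 ± 0.42, edgeR adjusted p = 0.000373). *Kcnj8* and *Abcc9*, which encode the pore and the sulphonylurea receptor of an ATP-sensitive potassium channel, were both higher in PDGFRα hi FB. *Kcnj8* was at 9.34, 8.31 and 0.896 CPM in SMC and 556, 673 and 419 in PDGFRα hi FB. *Abcc9* was at 10.4, 9.19 and 24.5 CPM in SMC and 1555, 1576 and 2063 in PDGFRα hi FB. For both genes the lowest PDGFRα hi FB library was far above the highest SMC library (log2 fold change -6.47, SE 0.80, edgeR adjusted p = 0.00159; -6.88, SE 0.52, 0.000185). These 2 genes are also on the pericyte list.

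*Trpc6*, a receptor-operated cation channel, was at 30.4, 16.03 and 90.9 CPM in SMC and at 0 in all 3 PDGFRα hi FB libraries (log2 fold change 11.93 ± 1.42, edgeR adjusted p = 0.00349; without SMC 3 log2 fold change 10.99). Fitted log2 fold changes of genes at or near 0 in a population depend on the prior count, and counting intervals cover counting error only. The plasma membrane calcium pump *Atp2b4* had 470.1, 451 and 461 CPM in SMC and 92.0, 101 and 90.5 in PDGFRα hi FB (log2 fold change 2.29 ± 0.28, edgeR adjusted p = 0.00161). With length-scaled TPM counts its call was lost, at a log2 fold change of 0.94. Of the genes of the calcium stores, *Atp2a2*, *Itpr1* and *Stim1* were at a like level. The pump of the sarcoplasmic reticulum *Atp2a2* was at 656, 615 and 1090.2 CPM in SMC and 653, 649 and 764 in PDGFRα hi FB, with an interval of -0.53 to 0.91. The inositol trisphosphate receptor *Itpr1* had 729, 559.8 and 787 CPM in SMC and 367, 409 and 368 in PDGFRα hi FB and the store sensor *Stim1* 56.3, 40.7 and 49.0 CPM in SMC and 37.2, 51.9 and 68.3 in PDGFRα hi FB, with intervals of 0.22 to 1.497 and -1.04 to 0.82. The SMC libraries of *Itpr1* were nonetheless all above those of PDGFRα hi FB. *Ryr3*, a ryanodine receptor of the stores, was called higher in PDGFRα hi FB (17.4, 26.6 and 33.5 CPM in SMC and 73.8, 111 and 80.3 in PDGFRα hi FB; log2 fold change -1.77 ± 0.42, edgeR adjusted p = 0.0417), but not without SMC 1 or 2 or without PDGFRα hi FB 1, 2 or 3 (log2 fold change -2.03 to -1.55 over the 6 fits, largest edgeR adjusted p = 0.223). Over 17 alternative fits the log2 fold change of *Ryr3* ran from -2.07 to -0.82. *Casq2*, which encodes a calcium-binding protein of the stores, was at 76.7, 112 and 73.5 CPM in SMC and 162, 208 and 126 in PDGFRα hi FB and undetermined, as was *Casq1*. *Ryr2*, *Pln* and *P2rx1* were at 4.15 to 15.3, 1.96 to 18.9 and 0.224 to 15.8 CPM in SMC and undetermined, and *Sln* and *Trpc4* had too few counts to be tested. *Ryr2* was called higher in SMC with DESeq2 and without SMC 3 (log2 fold change 2.63, edgeR adjusted p = 0.0398).

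Among intermediate filaments and dense plaque proteins, 15 of 40 tested genes were called higher in SMC, 16 were at a like level and 9 were undetermined (without SMC 3, 16 higher in SMC and 0 in PDGFRα hi FB; median log2 fold change 1.07). *Des*, the gene of the muscle intermediate filament desmin, was at 831, 792 and 493 CPM in SMC and 67.4, 69.9 and 17.7 in PDGFRα hi FB (log2 fold change 3.77 ± 0.55, edgeR adjusted p = 0.00398). *Itga8*, an integrin chain that binds nephronectin and other matrix proteins, was at 101, 86.3 and 148 CPM in SMC and 1.57, 2.84 and 1.02 in PDGFRα hi FB (log2 fold change 5.91 ± 0.58, edgeR adjusted p = 0.000477). *Dtna*, the gene of α-dystrobrevin of the dystrophin complex, was at 326, 510.5 and 643 CPM in SMC and 2.36, 6.96 and 4.51 in PDGFRα hi FB (log2 fold change 6.72 ± 0.55, edgeR adjusted p = 0.000228). None of these 3 genes overlapped between populations, with *Dtna* and *Itga8* below 7 CPM in every PDGFRα hi FB library. Dystrophin itself, *Dmd*, was at 643, 822 and 1574 CPM in SMC and 95.7, 129 and 197 in PDGFRα hi FB (log2 fold change 2.85 ± 0.45, edgeR adjusted p = 0.00582), a call that was lost with length-scaled TPM counts (log2 fold change 2.17). *Itga9*, an integrin chain, was at 800.2, 639 and 1182 CPM in SMC and 133, 134 and 99.9 in PDGFRα hi FB (log2 fold change 2.84 ± 0.35, edgeR adjusted p = 0.00159). *Tes*, the gene of the focal adhesion protein testin, was at 473, 790.5 and 336 CPM in SMC and 13.2, 12.3 and 36.1 in PDGFRα hi FB (log2 fold change 4.70 ± 0.58, edgeR adjusted p = 0.00157). *Pdlim3* and *Pdlim5*, adaptors of adhesions and of the actin cytoskeleton, were higher in SMC by 2.04 and 1.98 on the log2 scale.

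Several calls of this list were lost when 1 library was left out, which lowers the power of the test by construction. *Nexn*, which encodes the actin-binding protein nexilin, was at 657, 621 and 4177 CPM in SMC and 200.2, 146 and 192 in PDGFRα hi FB. SMC 3 alone was far above the others (log2 fold change 3.34 ± 0.74, edgeR adjusted p = 0.0302). Without SMC 3 its log2 fold change was 1.81 (edgeR adjusted p = 0.00235), and the call was lost without PDGFRα hi FB 1, 2 or 3 (log2 fold change 1.81 to 3.75 over the 6 fits, largest edgeR adjusted p = 0.145). *Vim*, the gene of vimentin, was at 817, 641 and 1411 CPM in SMC and 306, 368 and 259.6 in PDGFRα hi FB. It lost its call without SMC 1 or 3 or without PDGFRα hi FB 1, 2 or 3 (log2 fold change 1.21 to 1.84 over the 6 fits, largest edgeR adjusted p = 0.159). *Flna*, the gene of the actin crosslinker filamin A, had 5264, 4069 and 4935 CPM in SMC and 1368, 1858 and 1372 in PDGFRα hi FB. It was not called without PDGFRα hi FB 1 or 3 (log2 fold change 1.56 to 1.80 over the 6 fits, largest edgeR adjusted p = 0.105). *Csrp1* was not called without SMC 1 or without PDGFRα hi FB 1 or 3 (log2 fold change 1.62 to 2.23 over the 6 fits, largest edgeR adjusted p = 0.103). *Ldb3*, with 22.8 to 27.3 CPM in SMC and 0.226 to 2.301 CPM in PDGFRα hi FB, was not called without SMC 1 or 2 or without PDGFRα hi FB 1 or 3 (log2 fold change 4.24 to 6.63 over the 6 fits, largest edgeR adjusted p = 0.109). *Lpp*, at 4589.9, 4467 and 11221 CPM in SMC and 1062, 949 and 1297 in PDGFRα hi FB, was not called without PDGFRα hi FB 1 or 2 (log2 fold change 2.01 to 2.84 over the 6 fits, largest edgeR adjusted p = 0.0529).

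Among the 16 genes of this list at a like level were the following. *Itgb1*, the integrin β1 chain, was at 811, 1136 and 883 CPM in SMC and 909.9, 910.2 and 1851 in PDGFRα hi FB, with an interval of -1.19 to 0.44. The paper gated stromal cells on integrin β1 for its single-cell libraries. If the sorts used here did so too, its presence in both populations was required by the gate. *Tln1*, the gene of talin, which links integrins to actin, was at 671, 525 and 337 CPM in SMC and 411, 495 and 352 in PDGFRα hi FB (-0.47 to 1.04), and the α-actinins *Actn1* and *Actn4* had intervals of -0.92 to 0.45 and -0.67 to 0.64. *Cav1*, the gene of caveolin-1, was at 226, 251 and 271 CPM in SMC and 179.9, 218 and 237 in PDGFRα hi FB (-0.41 to 0.88). The sarcoglycans *Sgcb*, *Sgcd* and *Sgce*, partners of dystrophin in the membrane, were also at a like level, although *Dmd* and *Dtna* were not. The LIM-domain gene *Fhl1* had 2403, 3187 and 3475 CPM in SMC and 1453, 1916 and 1988 in PDGFRα hi FB, a like level by its interval (0.09 to 1.43) with libraries that did not overlap. Vinculin (*Vcl*), synaptopodin-2 (*Synpo2*) and *Pdlim7* were undetermined, with log2 fold changes of 1.08, 1.41 and 1.44 and edgeR adjusted p = 0.0721, 0.0401 and 0.0445, of which the latter pair passed the adjusted p but not the fold threshold. Without SMC 3 *Pdlim7* was called higher in SMC (log2 fold change 1.54, edgeR adjusted p = 0.0194).

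Of the transcriptional regulators, 3 of 17 tested genes were called higher in SMC and 1 higher in PDGFRα hi FB (without SMC 3, 3 higher in SMC and 2 in PDGFRα hi FB; median log2 fold change 0.49). *Myocd*, the coactivator myocardin that drives smooth muscle genes together with serum response factor, was at 612, 791 and 616 CPM in SMC and 0.655, 1.44 and 1.24 in PDGFRα hi FB. It lay within a narrow range in SMC and near background in PDGFRα hi FB (log2 fold change 9.18 ± 0.47, edgeR adjusted p = 2.53e-05). *Mef2c*, a MADS-box factor of muscle, was at 133, 156 and 62.5 CPM in SMC and 1.97, 9.74 and 10.49 in PDGFRα hi FB (log2 fold change 3.98 ± 0.69, edgeR adjusted p = 0.00970). It was not called with length-scaled TPM counts (log2 fold change 2.70). *Tbx3*, a T-box factor, was at 149, 148 and 115 CPM in SMC and 50.2, 62.4 and 32.6 in PDGFRα hi FB and stood at the edge of both thresholds (log2 fold change 1.5001 ± 0.37, edgeR adjusted p = 0.0491). It was not called without SMC 1 or 2 or without PDGFRα hi FB 1, 2 or 3 (log2 fold change 1.28 to 1.73 over the 6 fits, largest edgeR adjusted p = 0.199). *Tshz3*, a zinc finger factor needed for smooth muscle differentiation in the ureter, was at 52.7, 28.5 and 52.0 CPM in SMC and 222, 171 and 141 in PDGFRα hi FB (log2 fold change -2.00 ± 0.39, edgeR adjusted p = 0.0155). It was not called without SMC 2 or without PDGFRα hi FB 1 or 2 (log2 fold change -2.15 to -1.76 over the 6 fits, largest edgeR adjusted p = 0.101). *Srf* itself, the gene of serum response factor, was at 222, 134 and 239.6 CPM in SMC and 149, 111 and 70.0 in PDGFRα hi FB, with an interval of -0.03 to 1.73 and undetermined. Of the coactivators related to myocardin, *Mrtfa* was shared (51.7, 50.8 and 46.4 CPM in SMC and 46.7, 59.6 and 39.9 in PDGFRα hi FB; -0.84 to 0.90), and *Mrtfb* was undetermined (log2 fold change 1.41). Also at a like level were *Foxf1* and *Foxf2*, forkhead factors of gut mesenchyme, with intervals of -1.11 to 0.74 and -0.37 to 1.21, and the Hippo pathway genes *Yap1*, *Wwtr1* and *Tead1*. *Gata6* and *Barx1* had too few counts to be tested.

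The CArG box, the letters CC, 6 bases of A or T, and GG, is the sequence that serum response factor is known to bind, and was searched for because it is known from promoters of contractile genes. RefSeq promoters of GRCm38.p6, from 250 bases before to 50 bases after the start, were matched for 103 of the 128 contractile genes, and as the motif is its own reverse complement, 1 search covers both strands. It occurred in 14 of the 103 genes (13.6%), against 488 of all 27025 genes with a promoter (1.81%). Among the genes with a promoter it was found in 4 of 29 called higher in SMC (*Actc1*, *Dmd*, *Ldb3* and *Trpc6*), in none of 8 called higher in PDGFRα hi FB, in 5 of 30 at a like level (*Actg1*, *Cnn2*, *Fermt2*, *Fhl1* and *Fhl2*) and in 4 of 32 undetermined (*Myl6*, *Myl9*, *Srf* and *Vcl*). The shares were 13.8% of genes higher in SMC, 16.7% at a like level and 12.5% undetermined. The 8 genes on the PDGFRα hi FB side are too few for a count of 0 to separate them from the other classes. Differences between these classes were not tested. A match describes these letters in this window and is no binding site. The 120 bases before the start are shown for 3 genes that separated the populations, 3 that they shared and *Srf*, with the CArG box in capitals. Positions are chr2:114052876-114052995, minus strand for *Actc1*, chrX:82948750-82948869, plus strand for *Dmd*, chr14:34588682-34588801, minus strand for *Ldb3*, chr11:120348496-120348615, minus strand for *Actg1*, chr10:79988480-79988599, plus strand for *Cnn2*, chr1:43163962-43164081, minus strand for *Fhl2* and chr17:46556163-46556282, minus strand for *Srf*. The box begins 47 bases before the start in *Actc1*, 90 in *Actg1* and 56 in *Cnn2*.
Actc1: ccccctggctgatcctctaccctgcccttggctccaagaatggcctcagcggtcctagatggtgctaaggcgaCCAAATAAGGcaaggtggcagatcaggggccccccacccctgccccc
Dmd: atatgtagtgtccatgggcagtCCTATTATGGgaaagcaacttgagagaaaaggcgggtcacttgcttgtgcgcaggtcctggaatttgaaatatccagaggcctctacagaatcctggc
Ldb3: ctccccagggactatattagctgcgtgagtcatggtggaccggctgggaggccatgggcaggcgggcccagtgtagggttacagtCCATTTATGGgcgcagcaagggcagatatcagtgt
Actg1: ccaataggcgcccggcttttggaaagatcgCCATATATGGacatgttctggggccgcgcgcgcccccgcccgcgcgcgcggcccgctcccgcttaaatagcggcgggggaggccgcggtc
Cnn2: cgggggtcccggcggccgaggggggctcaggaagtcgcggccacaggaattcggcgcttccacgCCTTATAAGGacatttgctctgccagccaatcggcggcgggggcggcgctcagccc
Fhl2: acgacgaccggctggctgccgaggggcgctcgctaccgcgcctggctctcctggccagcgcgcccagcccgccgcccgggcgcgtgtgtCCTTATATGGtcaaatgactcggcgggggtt
Srf: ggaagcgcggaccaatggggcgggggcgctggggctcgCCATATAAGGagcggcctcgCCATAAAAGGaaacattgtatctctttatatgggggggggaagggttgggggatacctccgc

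Beside the 3 other small intestinal populations, the genes that separated SMC from PDGFRα hi FB were not all particular in level to these cells. Levels here are means ± SD of 3 libraries on the scale of the 15 small intestinal libraries, and were not tested. Of the 38 contractile genes called higher in SMC, 32 had their highest mean in SMC, 5 in pericytes and 1 in Fgfr2+ FB, and of the 10 called higher in PDGFRα hi FB, 8 had it in PDGFRα hi FB and 2 in pericytes. *Cnn1* was at 1004 ± 101 CPM in SMC and 6.96 ± 5.104 CPM in pericytes, and *Kcnma1* at 351 ± 24.1 and 4.12 ± 4.64 CPM. *Des* was at 1123 ± 53.5 CPM in pericytes and 694 ± 191 CPM in SMC. *Cacna1c* was at 993 ± 161 CPM in pericytes and 406 ± 24.5 CPM in SMC. *Myh11* was at 1512 ± 488 CPM in PDGFRα hi FB and 1561 ± 518 CPM in pericytes, 2 means closer than their SD, against 44.2 ± 6.66 CPM in CD34+ FB and 252 ± 53.5 CPM in Fgfr2+ FB. *Acta2* also had its lowest means in the other FB, at 1005 ± 189.8 CPM in PDGFRα hi FB, 766 ± 352 in pericytes, 291 ± 87.8 in Fgfr2+ FB and 48.1 ± 17.2 in CD34+ FB. *Tagln* was at 502 ± 144 CPM in SMC, 244 ± 89.0 in PDGFRα hi FB and 112 ± 38.4 in pericytes. On the PDGFRα hi FB side, *Abcc9* was at 1759 ± 278 CPM in PDGFRα hi FB and 2102 ± 273 CPM in pericytes. *Kcnn3* was at 1164 ± 56.8 CPM in PDGFRα hi FB and 902 ± 138 CPM in CD34+ FB. *Cacna1g* was at 258 ± 94.2 CPM in PDGFRα hi FB against 59.9 ± 23.7 CPM in Fgfr2+ FB.

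**Figure D3:**
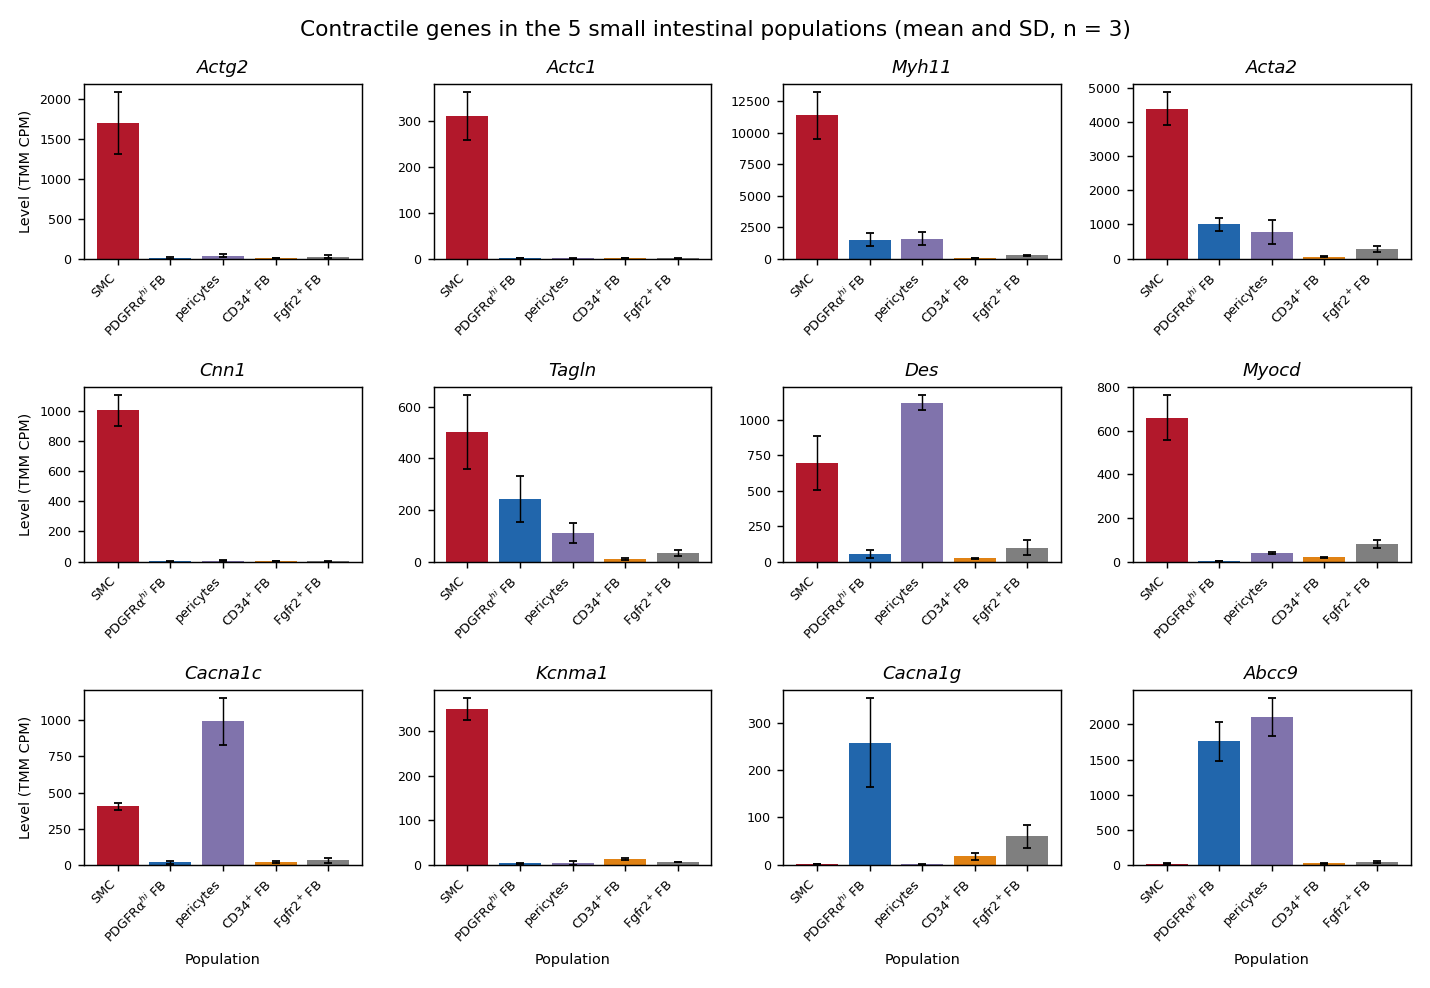
Level of 12 contractile genes as TMM CPM in the 5 small intestinal populations (bars, mean of 3 libraries; error bars, SD). *Cnn1*, *Actc1* and *Kcnma1* are high in SMC alone among the 5, *Des* and *Cacna1c* are highest in pericytes, and *Abcc9* is high in PDGFRα hi FB and pericytes.

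Some genes, called or not, differed in the annotated transcripts that made up their total. Shares of a gene's TPM are given as means ± SD of 3 libraries and were not tested; short single reads divide unevenly among transcripts that overlap. With a difference of at least 25 percentage points and no overlap, 12 transcripts of 9 genes were listed among the 91 contractile genes with at least 10 CPM everywhere, and 6 of the 12 were among the 13 listed when shares of estimated counts were used. By TPM the largest difference was in *Ryr3*, where Ryr3-212, annotated as a retained intron, held 68.0 ± 7.20% in SMC and 9.73 ± 6.70% in PDGFRα hi FB; it was not listed by estimated counts. The largest difference by estimated counts was in dystrophin, where Dmd-203 held 67.1 ± 8.19% in SMC and 6.29 ± 4.33% in PDGFRα hi FB and Dmd-201 9.17 ± 3.98% and 62.3 ± 0.853%; neither was listed by TPM. Its part in the loss of the *Dmd* call with length-scaled TPM counts was not tested. Caldesmon is an example: *Cald1* was at a like level, but its transcript Cald1-210 held 47.9 ± 2.59% of it in SMC and 8.04 ± 1.26% in PDGFRα hi FB. For tropomyosin 1, *Tpm1*, Tpm1-215 held 66.2 ± 10.6% in SMC and 31.7 ± 7.04% in PDGFRα hi FB. In *Palld*, the gene of the actin-crosslinking protein palladin and also at a like level, Palld-203 held 33.0 ± 29.4% in SMC, with a wide spread, and 0.00925 ± 0.0160% in PDGFRα hi FB, where Palld-202 held 80.6 ± 13.0%. In *Synpo2*, Synpo2-202 held 33.6 ± 19.0% and 1.76 ± 3.04%, and in *Smtn*, Smtn-202 held 19.997 ± 25.5% and 60.6 ± 5.68%. Cald1-210 was not among the 6 listed by both measures, while Tpm1-215, Palld-202, Palld-203, Synpo2-202 and Smtn-202 were.

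Receptors that set the tone of gut muscle were also divided. Of 41 listed genes 29 were tested, 7 called higher in SMC and 4 higher in PDGFRα hi FB (without SMC 3, 8 higher in SMC and 5 in PDGFRα hi FB; median log2 fold change 0.34). The angiotensin receptors *Agtr1a* and *Agtr1b* were at 19.8, 9.97 and 16.9 and at 37.5, 34.5 and 151 CPM in SMC, and at or below 1.31 CPM in PDGFRα hi FB (log2 fold change 5.58 and 6.60, edgeR adjusted p = 0.00590 and 0.00266). Without SMC 3, its highest library, *Agtr1b* had a log2 fold change of 5.54. On the scale of the 15 small intestinal libraries the mean of *Agtr1a* was 15.3 CPM in SMC. It was higher in pericytes (459 CPM), Fgfr2+ FB (93.8 CPM) and CD34+ FB (71.7 CPM). *Agtr1b* had its highest mean in SMC (72.2 CPM), followed by Fgfr2+ FB (15.2 CPM). The purinergic receptor *P2ry1* was at 338, 331 and 581 CPM in SMC and 45.6, 59.2 and 56.8 in PDGFRα hi FB (log2 fold change 2.95 ± 0.36, edgeR adjusted p = 0.00154). The UDP-glucose receptor *P2ry14* was at 541, 672 and 1209 CPM in SMC and 101, 97.6 and 83.1 in PDGFRα hi FB (log2 fold change 3.11 ± 0.38, edgeR adjusted p = 0.00161). The endothelin receptor *Ednra* was at 199, 156 and 566 CPM in SMC and 3039.9, 2615 and 2385 in PDGFRα hi FB (log2 fold change -3.13 ± 0.51, edgeR adjusted p = 0.00713), and its relative *Ednrb* at 191, 173 and 218 CPM in SMC and 719, 552 and 1039 in PDGFRα hi FB (log2 fold change -1.99 ± 0.33, edgeR adjusted p = 0.00788). *Aplnr*, the apelin receptor, was at 0.210, 0.684 and 0.896 CPM in SMC and 752, 711 and 293 in PDGFRα hi FB (log2 fold change -9.92 ± 0.69, edgeR adjusted p = 0.000108). The 2 endothelin receptors and the apelin receptor were thus higher in PDGFRα hi FB, with no overlap. The muscarinic receptors *Chrm2* and *Chrm3*, through which acetylcholine contracts gut muscle, and the tachykinin receptors *Tacr2* and *Tacr3* were at 0.978 CPM or below in all 6 libraries and were not tested. Other calls were *Cysltr1*, *Ptger1* and *Ptgir* in SMC and *Htr2a* in PDGFRα hi FB. The call of *Cysltr1* was lost without PDGFRα hi FB 1 or 3 (log2 fold change 2.55 to 3.51 over the 6 fits, largest edgeR adjusted p = 0.0774). *Ptger1* was not called without PDGFRα hi FB 1 (log2 fold change 1.94 to 2.32 over the 6 fits, largest edgeR adjusted p = 0.0648). *Ptgir*, at 1.05, 2.93 and 41.1 CPM in SMC and 0, 0.0535 and 0 in PDGFRα hi FB, had most of its counts in SMC 3 and was not called without PDGFRα hi FB 1, 2 or 3 (log2 fold change 5.74 to 10.09 over the 6 fits, largest edgeR adjusted p = 0.138). *Htr2a* was not called without SMC 1 or 2 or without PDGFRα hi FB 1 or 3 (log2 fold change -9.26 to -6.57 over the 6 fits, largest edgeR adjusted p = 0.0880). With 1 count in SMC, the ratio of means of *Htr2a* was 199.8-fold (95% counting interval 28.1 to 6279). Of *Ptger1*, 64.7% of the 31-base stretches occur in other genes, which makes its count uncertain.

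Of 15 BMP ligands and antagonists tested, 2 were called higher in SMC and 7 higher in PDGFRα hi FB (without SMC 3, 2 higher in SMC and 7 in PDGFRα hi FB; median log2 fold change -0.85). *Bmp3* was at 11.5, 8.11 and 34.3 CPM in SMC and 1069, 957 and 947 in PDGFRα hi FB (log2 fold change -5.79 ± 0.61, edgeR adjusted p = 0.000716). *Bmp7* was at 26.6, 34.5 and 57.9 CPM in SMC and 988, 1019 and 610.3 in PDGFRα hi FB (log2 fold change -4.46 ± 0.43, edgeR adjusted p = 0.00046). *Bmp5* was at 339, 395 and 244 CPM in SMC and 2116, 2270.1 and 2588 in PDGFRα hi FB (log2 fold change -2.84 ± 0.32, edgeR adjusted p = 0.00102), so that it was also plainly measured in SMC. *Bmp4* was shared, at 588, 595 and 771 CPM in SMC and 899.7, 863 and 619 in PDGFRα hi FB, with an interval of -0.95 to 0.38. The antagonist *Chrd* was higher in PDGFRα hi FB (3.57, 2.35 and 0.336 CPM in SMC and 109.7, 124 and 39.4 in PDGFRα hi FB; log2 fold change -5.44 ± 0.87, edgeR adjusted p = 0.00628). *Grem1*, another antagonist, was at 17.5, 14.9 and 55.7 CPM in SMC and 1.31, 1.82 and 3.16 in PDGFRα hi FB (log2 fold change 3.80 ± 0.80, edgeR adjusted p = 0.0241), all SMC libraries above all PDGFRα hi FB libraries. The call of *Grem1* was lost without PDGFRα hi FB 1, 2 or 3 (log2 fold change 2.92 to 4.21 over the 6 fits, largest edgeR adjusted p = 0.127). On the scale of the 15 small intestinal libraries its mean was 28.6 CPM in SMC and 1033 CPM in CD34+ FB. *Bmp2*, *Bmp6* and *Nbl1* were also called higher in PDGFRα hi FB. *Bmp2* was not called without SMC 2 or without PDGFRα hi FB 1, 2 or 3 (log2 fold change -2.43 to -1.70 over the 6 fits, largest edgeR adjusted p = 0.135). *Bmp6* was not called without SMC 1 or 2 or without PDGFRα hi FB 1, 2 or 3 (log2 fold change -3.82 to -2.94 over the 6 fits, largest edgeR adjusted p = 0.136). *Nbl1* was not called without SMC 1 or 2 (log2 fold change -4.22 to -3.12 over the 6 fits, largest edgeR adjusted p = 0.0568).

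Of 14 Wnt ligands, R-spondins and antagonists tested (without SMC 3, 2 higher in SMC and 4 in PDGFRα hi FB; median log2 fold change 0.46), 2 were called higher in SMC and 3 higher in PDGFRα hi FB. The antagonist *Sfrp1* was at 1671, 1556 and 4755 CPM in SMC and 27.3, 33.8 and 28.6 in PDGFRα hi FB, with SMC 3 above the other SMC libraries (log2 fold change 6.47 ± 0.57, edgeR adjusted p = 0.000291). *Wnt2b*, a ligand of canonical signalling, was at 661, 449 and 459 CPM in SMC and 32.8, 12.5 and 9.14 in PDGFRα hi FB (log2 fold change 4.86 ± 0.56, edgeR adjusted p = 0.00112). *Wnt5a*, a ligand of noncanonical signalling, was at 54.2, 66.6 and 17.3 CPM in SMC and 674, 487 and 645 in PDGFRα hi FB (log2 fold change -3.71 ± 0.51, edgeR adjusted p = 0.00291). *Wnt4* was at 22.7, 22.0 and 38.9 CPM in SMC and 208, 292 and 135 in PDGFRα hi FB (log2 fold change -2.93 ± 0.43, edgeR adjusted p = 0.00420). The antagonist *Wif1* was at 0, 0 and 0.112 CPM in SMC and 6.03, 18.6 and 10.6 in PDGFRα hi FB, with 1 count in all of SMC, which gives a ratio of 315-fold (95% counting interval 71.1 to 15746). It was not called without PDGFRα hi FB 2 (log2 fold change -10.02 to -7.39 over the 6 fits, largest edgeR adjusted p = 0.0532). Of 9 tested genes of the Hedgehog response, 4 were called higher in SMC, 2 were at a like level and 3 undetermined (without SMC 3, 4 higher in SMC and 0 in PDGFRα hi FB; median log2 fold change 1.18). *Hhip*, the decoy receptor that is itself a target of the pathway, was at 2504, 3560.2 and 4420.2 CPM in SMC and 1.84, 4.01 and 2.37 in PDGFRα hi FB (log2 fold change 10.28 ± 0.54, edgeR adjusted p = 2.53e-05). *Gas1*, a co-receptor, was at 182, 198 and 227 CPM in SMC and 1.57, 1.12 and 0.338 in PDGFRα hi FB (log2 fold change 7.63 ± 0.59, edgeR adjusted p = 0.00019). *Gli1*, a target of the pathway, was at 238, 271 and 137 CPM in SMC and 48.2, 59.1 and 24.1 in PDGFRα hi FB (log2 fold change 2.29 ± 0.45, edgeR adjusted p = 0.0165). The call of *Gli1* was lost without SMC 1 or 2 or without PDGFRα hi FB 1 or 3 (log2 fold change 2.00 to 2.57 over the 6 fits, largest edgeR adjusted p = 0.0785). The receptor *Ptch1* was at 2225, 2819.9 and 2486 CPM in SMC and 1101, 1386 and 1484 in PDGFRα hi FB and undetermined (log2 fold change 0.92, edgeR adjusted p = 0.1099), and *Smo*, which passes the signal on, was shared (-0.88 to 1.00).

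Of 29 genes listed for subepithelial fibroblasts, all tested and with the sorting gene *Pdgfra* among them, 10 were called higher in PDGFRα hi FB and 2 higher in SMC (without SMC 3, 2 higher in SMC and 13 in PDGFRα hi FB; median log2 fold change -1.04). *Sox6*, a transcription factor, was at 6.30, 6.55 and 36.7 CPM in SMC and 1263, 1136 and 1918 in PDGFRα hi FB (log2 fold change -6.45 ± 0.81, edgeR adjusted p = 0.00174). *Aldh1a1*, which makes retinoic acid, was at 90.0, 129.7 and 120.3 CPM in SMC and 1323, 1881 and 1171 in PDGFRα hi FB (log2 fold change -3.69 ± 0.35, edgeR adjusted p = 0.000411). The chemokine *Cxcl12* was at 169, 225 and 93.4 CPM in SMC and 1447, 1582 and 1252 in PDGFRα hi FB (log2 fold change -3.13 ± 0.39, edgeR adjusted p = 0.00163). *Fgf9* was at 7.35, 8.02 and 14.6 CPM in SMC and 140.4, 135 and 153 in PDGFRα hi FB (log2 fold change -3.84 ± 0.43, edgeR adjusted p = 0.00104). The growth factors on the SMC side were *Fgf7*, at 119.8, 107 and 174 CPM in SMC and 0.787, 0.268 and 0.677 in PDGFRα hi FB (log2 fold change 7.92 ± 0.61, edgeR adjusted p = 0.00019), and *Igf1*, at 1180.0, 1325 and 2591 CPM in SMC and 302, 294 and 383 in PDGFRα hi FB (log2 fold change 2.38 ± 0.38, edgeR adjusted p = 0.00639). *Foxl1*, a transcription factor used as a marker of subepithelial cells, was at 7.77, 13.4 and 0 CPM in SMC and 12.6, 25.7 and 5.19 in PDGFRα hi FB and undetermined, and *Nrg1*, a ligand of the epidermal growth factor receptor family, at 41.2, 30.7 and 4.82 CPM in SMC and 27.7, 32.0 and 6.09 in PDGFRα hi FB. *Cxcl14*, called higher in PDGFRα hi FB, was not called without SMC 2 or without PDGFRα hi FB 1, 2 or 3 (log2 fold change -5.27 to -3.27 over the 6 fits, largest edgeR adjusted p = 0.182).

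Of 28 interstitial matrix genes tested, 3 were called higher in SMC and 10 higher in PDGFRα hi FB, with a median log2 fold change of -1.15 (without SMC 3, 3 higher in SMC and 13 in PDGFRα hi FB). *Postn*, the gene of periostin, was at 1537, 1411 and 2606 CPM in SMC and 29.4, 15.2 and 42.3 in PDGFRα hi FB (log2 fold change 6.002 ± 0.52, edgeR adjusted p = 0.000291). *Col8a1* was at 419, 219.8 and 2346 CPM in SMC and 1.31, 1.34 and 2.03 in PDGFRα hi FB, with SMC 3 far above the other SMC libraries (log2 fold change 9.32 ± 1.07, edgeR adjusted p = 0.00114; without SMC 3 log2 fold change 7.66). *Mfap5*, a microfibril protein, was at 131, 107 and 384 CPM in SMC and 0.655, 1.18 and 0.451 in PDGFRα hi FB (log2 fold change 8.00 ± 0.75, edgeR adjusted p = 0.000397). *Col6a1* and *Col6a2*, chains of beaded-filament collagen, were called higher in PDGFRα hi FB with log2 fold changes of -2.23 and -2.15, as was *Fbn1*, the gene of fibrillin-1, with -1.91. *Col1a1*, *Dcn* and *Sparc* were shared, with intervals of -1.43 to 0.54, -1.08 to 0.28 and -1.25 to 0.60. Without SMC 3 *Col1a1* was undetermined (log2 fold change -1.09, edgeR adjusted p = 0.0297). In the basement membrane list, 3 of 25 tested genes were called higher in SMC and 7 higher in PDGFRα hi FB (without SMC 3, 3 higher in SMC and 9 in PDGFRα hi FB; median log2 fold change -0.80). *Col4a5* and *Col4a6*, type IV collagen chains, were at 0.210, 0.293 and 0.896 and at 1.99, 0.587 and 2.13 CPM in SMC, against 555, 454 and 578 and 128, 154 and 67.7 CPM in PDGFRα hi FB, whereas *Col4a1* and *Col4a2*, the chains found in all basement membranes, were shared (-0.41 to 0.93 and -0.48 to 0.86). *Npnt*, the gene of nephronectin, was at 2578, 2004 and 3079 CPM in SMC and 14.7, 13.1 and 3.27 in PDGFRα hi FB (log2 fold change 7.94 ± 0.66, edgeR adjusted p = 0.000241), and its receptor chain *Itga8* was higher in SMC as well. *Itga8* was not particular to SMC. On the scale of the 15 small intestinal libraries its mean was 109 CPM in SMC and 145 CPM in Fgfr2+ FB. *Lama4*, the gene of the laminin α4 chain, was at 221, 319.5 and 179.7 CPM in SMC and 1863, 1636 and 2039.5 in PDGFRα hi FB (log2 fold change -2.94 ± 0.34, edgeR adjusted p = 0.00109), and *Lama2* was shared (-0.74 to 0.50).

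Immediate early genes, which cell isolation can induce, were undetermined (15 genes) or at a like level (2 genes) among 17 tested (without SMC 3, 1 higher in SMC and 1 in PDGFRα hi FB; median log2 fold change -0.18). *Fos* was at 17.1, 17.3 and 29.5 CPM in SMC and 30.2, 8.29 and 60.2 in PDGFRα hi FB. *Junb* was at 19.8, 23.9 and 2.13 CPM in SMC and 33.8, 9.85 and 13.6 in PDGFRα hi FB, with overlapping libraries. Of 15 heat shock genes, 4 were called higher in SMC, 3 were at a like level and 8 undetermined (without SMC 3, 4 higher in SMC and 0 in PDGFRα hi FB; median log2 fold change 0.43). The 4 were the small heat shock proteins *Hspb1*, *Hspb6*, *Hspb7* and *Hspb8*, while *Cryab*, of the same family, was at 97.1, 63.8 and 80.5 CPM in SMC and 54.5, 70.8 and 20.6 in PDGFRα hi FB and undetermined. *Hspb7* was at 136, 114 and 49.0 CPM in SMC and 0.918, 1.02 and 0.451 in PDGFRα hi FB (log2 fold change 6.92 ± 0.66, edgeR adjusted p = 0.000439). *Hspb6* was at 147, 148 and 99.5 CPM in SMC and 3.02, 6.31 and 0.338 in PDGFRα hi FB (log2 fold change 5.31 ± 0.86, edgeR adjusted p = 0.00682). *Hspb1*, of whose 31-base stretches 55.4% occur in other genes, was not called without PDGFRα hi FB 1 (log2 fold change 3.94 to 5.01 over the 6 fits, largest edgeR adjusted p = 0.0688). The inducible chaperones *Hspa1a* and *Hspa1b*, whose counts are uncertain because 70.1% and 68.1% of their 31-base stretches occur elsewhere, were not called (log2 fold change 0.83 and 0.37), and *Hsp90ab1* was shared (-0.97 to 0.43).

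Some of the fold changes above, of genes called in all 6 fits with 1 library left out, moved by more than 1.5 times in at least 1 of these fits. Among contractile genes the log2 fold change ran from -7.49 to -6.63 for *Abcc9*, 4.34 to 5.49 for *Cacna1c*, 4.63 to 5.66 for *Cacna1h* and up to 5.38 for *Tes*. In the other lists it ran from -6.68 to -5.43 for *Bmp3*, -6.06 to -4.96 for *Chrd*, -3.94 to -2.81 for *Ednra*, 4.80 to 6.30 for *Hspb6*, 7.16 to 8.52 for *Mfap5*, 5.73 to 6.75 for *Sfrp1*, -7.83 to -6.04 for *Sox6* and 4.54 to 5.59 for *Wnt2b*. The lowest or highest value came without SMC 3 for *Abcc9*, *Bmp3*, *Chrd*, *Ednra*, *Mfap5*, *Sfrp1* and *Sox6*. Among all 17 alternative fits the log2 fold change went beyond these ranges, to -5.99 for *Abcc9*, 6.92 for *Mfap5* and -5.29 for *Sox6*. Counts of calls in the lists moved too over the 6 fits. Calls higher in SMC numbered 9 to 16 among intermediate filaments and dense plaque proteins, 4 to 8 among receptors and 1 to 3 in the basement membrane list. Calls higher in PDGFRα hi FB numbered 1 to 3 among actins and myosins, 4 to 7 among BMP genes and 5 to 13 in the interstitial matrix. Genes at a like level numbered 2 to 7 in the list of the light chain kinase, phosphatase and nucleotide signalling. They numbered 1 to 3 among thin filament genes and 5 to 9 among transcriptional regulators.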

How the data were processed

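The authors removed adapters with Trim Galore 0.4.0, checked reads with FastQC 0.11.2 and deposited, for each of 30 libraries, a transcript table made with kallisto 0.42.5 on mm10 that holds an estimated count and a TPM for each of 98492 transcripts. RNA had been amplified over the whole transcript with an unstranded kit and read as 50-base single reads, so that antisense partners cannot be told apart. Here estimated counts were summed to 32342 GENCODE M21 genes and rounded, where 97116 of the transcripts matched; the deposited TPM served only for transcript shares and for length-scaled counts. Libraries held 7327358 to 18148945 estimated counts, so that a gene at 10 CPM had more than 50 counts in each, while the biological coefficient of variation was 0.694. A gene was fitted when 3 or more of the 6 libraries had 6 or more counts, using edgeR 4.0.16 (R 4.3.3; TMM scaling, quasi-likelihood test, Benjamini-Hochberg adjustment over all genes tested), and the code was tested on simulated data. The SE was taken from the fold change and the F statistic of the test. DESeq2 1.42.0, other scalings and filters, a replicate block and the omission of each library were tried as alternatives. Genes named are members of the lists and, in each direction, the 15 called protein-coding genes with the largest absolute log2 fold change, no overlap between populations and a mean of at least 10 CPM in the higher one. Which members of a list the text names follows their differences, levels and roles and was chosen after their values were seen. The members and lists were chosen with earlier results of these data known. The share of 31-base stretches that a gene has in common with other genes was counted in the GENCODE transcripts. Some genes of the lists and of these 15 are not reported here.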

Additional observations from a re-analysis of the deposited data

How the results depend on the processing

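The 432 and 410 calls came to 780 and 682 with DESeq2, and leaving out 1 library at a time gave 210 to 493 higher in SMC and 205 to 591 higher in PDGFRα hi FB. Fits with 5 libraries have less power by construction. Most of these counts were lower than with all libraries and those without SMC 3 were higher, for reasons that were not tested. Over the same 6 fits contractile genes called higher in SMC numbered 27 to 39, those higher in PDGFRα hi FB 5 to 12 and those at a like level 26 to 41. With both replicates numbered 3 left out, an alternative chosen after seeing the data, 578 genes were called higher in SMC and 675 higher in PDGFRα hi FB. Leaving out mitochondrial genes, also chosen after seeing the data, gave 430 and 406. Like level is the result that rests most on its bound: with the interval held within -1 and 1 it applied to 11 contractile genes in place of 38. Counts under RLE (429 and 407) or upper-quartile scaling (425 and 396), without a filter (508 and 462), with a stricter filter (476 and 443), with all 30 libraries (439 and 398) or the 15 small intestinal ones (380 and 337) in 1 fit, and with length-scaled TPM (345 and 336) lay within 1.5 times those reported. Length-scaled TPM kept 30 of the 38 and 7 of the 10 contractile calls and lost *Atp2b4*, *Dmd*, *Mef2c*, *Myh9*, *Nexn*, *Pde3a*, *Ppp1r12b*, *Ryr3*, *Tbx3*, *Tshz3* and *Vim*, along with *Bmp2*, *Bmp6*, *Cxcl14* and *Rdh10*; transcript lengths enter these counts, and why the calls were lost was not tested. Fits with all 30 or with 15 libraries lost *Ryr3*, *Tbx3*, *Bmp2*, *Ptger1*, *Htr2a* and *Rdh10*, and the latter fit also *Gli1*. Upper-quartile scaling lost *Tbx3*, *Bmp2*, *Bmp6* and *Cxcl14*, no filter lost *Tbx3*, and leaving out both replicates numbered 3 lost *Mylk*, *Tbx3*, *Vim*, *Ptgir* and *Rdh10* and gained *Ryr2* and *Lyz2*.

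A block by replicate number gave 332 and 312 calls and kept 35 of the 38 and 6 of the 10 contractile calls. It lost *Myh9*, *Myl12a*, *Nexn*, *Ryr3*, *Smtnl2*, *Tbx3* and *Vim*, and of other named genes *Bmp2*, *Nbl1*, *Hspb1*, *Htr2a*, *Dpt* and *Rdh10*, and gained *Gucy1b1*. The deviations of equally numbered SMC and PDGFRα hi FB libraries from their group means correlated at 0.104, 0.019 and 0.153 across genes. Such values, from 3 libraries per population and genes that are not independent, cannot show whether the numbers mark pairs. The paper speaks of 3 experiments and of sorting subsets of the same animals, but neither labels nor paper say which libraries share a mouse. The numbers were therefore not taken as pairs, and the p-values given leave out any pairing.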

Other observations

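Outside the lists, the largest differences were in genes with other roles, and the following were picked after their values were seen. *Frem2*, the gene of an extracellular matrix protein of the basement membrane zone, was at 1287, 1156 and 1309 CPM in SMC and 0.918, 0.910 and 0.790 in PDGFRα hi FB (log2 fold change 10.46 ± 0.41, edgeR adjusted p = 1.09e-05). *Nmur2*, the gene of a neuromedin U receptor, was at 349, 436 and 723 CPM in SMC and 0.131, 0.482 and 0.113 in PDGFRα hi FB (log2 fold change 10.72 ± 0.67, edgeR adjusted p = 5.15e-05; 10.31 to 11.86 over the fits with 1 library left out). *Cdh6*, the gene of cadherin-6, was at 99.0, 60.03 and 84.0 CPM in SMC and 0, 0.0535 and 0 in PDGFRα hi FB; with 1 count in PDGFRα hi FB the ratio of means was 4542-fold (95% counting interval 507 to 111820.0). *Ccn3*, the gene of a matricellular protein, was at 141, 149 and 123 CPM in SMC and 0, 0.107 and 0.113 in PDGFRα hi FB, a ratio of 1879-fold (95% counting interval 554 to 7867) on 3 counts in PDGFRα hi FB. *Vsig2* was at 26.0, 31.2 and 31.7 CPM in SMC and *Bves*, a membrane protein gene of muscle, at 16.3, 11.1 and 16.8 CPM, and both were at 0 in all PDGFRα hi FB libraries, at least 99.7-fold and 49.6-fold higher against a floor of 3 counts per library, which covers counting error only.

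In PDGFRα hi FB, *Dio2*, the gene of the deiodinase that activates thyroid hormone, was at 294, 377 and 431 CPM, against 0.210, 0.293 and 0.560 CPM in SMC (log2 fold change -9.99 ± 0.53, edgeR adjusted p = 2.53e-05). *Edn3*, the gene of endothelin 3, was at 124, 169.6 and 141 CPM, against 0.210, 0.0978 and 0.224 CPM in SMC (log2 fold change -9.60 ± 0.56, edgeR adjusted p = 3.75e-05), in the population in which both endothelin receptors were higher. *Ak4*, the gene of a mitochondrial adenylate kinase, was at 19.8, 10.7 and 20.8 CPM and at 0 in SMC, at least 54.3-fold higher.

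The comparison rests on 3 libraries per population, of which the third stood apart in each, and on a sort that ended with different gates, so that differences between cells and between gates cannot be told apart. Transcript levels were measured and not protein, phosphorylation or contraction. The cause of the high mitochondrial share of SMC 3 was not tested. Genes with few counts in either population were mostly undetermined, which is no statement that they were shared. The transcript set used for the deposited tables is not named, and transcripts that it lacks could not be counted.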
